A study of Mus musculus with 12 samples.

Results

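The interferon-stimulated genes examined here are 41 mouse genes named from knowledge of the type I and type II interferon response, out of 23282 entries in the count tables, and all 41 were found by symbol. Their expression was compared in skin with atopic dermatitis (AD)-like lesions between lean and obese mice, to ask how diet-induced obesity changes such lesions. Each of 12 wild-type mice gave 1 library of skin RNA, read at the 3′ end of each transcript. Lesions were raised in all 12 mice with 0.5% 1-chloro-2,4-dinitrobenzene (DNCB), a contact sensitiser, put on the dorsal skin for 6 weeks. The AD group (5 mice) ate a normal diet. The AD+OB group (7 mice) ate a high-fat diet with 60 kcal% fat for 4 weeks before DNCB, and 10 weeks in all. The animals were male C57BL/6J mice obtained at 5 weeks of age. Skin without DNCB was not analysed here, so that values show the difference between obese and lean lesional skin and not the response to DNCB. DNCB lesions in an inbred strain are a chemically induced model of AD, and the labels do not tell whether mice of a group shared a cage.

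Interferons are cytokines that cells release on sensing viral or displaced nucleic acids (type I and type III) or that T cells and natural killer cells release on activation (type II, interferon-gamma). Type I and type III interferons signal through JAK1 and TYK2 to a complex that holds STAT2 and IRF9 and binds the interferon-stimulated response element (ISRE), whereas interferon-gamma signals through JAK1 and JAK2 to the gamma-activated site (GAS). The induced genes encode nucleic acid sensors, antiviral effectors and regulators of the response itself, and in skin they are expressed by keratinocytes as well as by immune and stromal cells.

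The libraries of the groups differed in complexity. Totals lay between 9746937 and 11688979 counts in AD mice and between 10726845 and 13462434 in AD+OB mice, and a count of 0 in a library allows up to 3 counts, or at most 0.310 CPM (counts per 1e+06 counts of the TMM-scaled library total, the scale of all levels here). Reads fell on 13100 to 15063 genes in AD and on 15522 to 16677 in AD+OB. The estimated number of counts per sequenced molecule lay between 12 and 32.2 in AD and between 3.92 and 7.35 in AD+OB, so that the AD libraries rest on fewer molecules, and group and library complexity cannot be told apart. The limit given for a count of 0 treats each count as a separate molecule. With several counts per molecule it is wider, and more so in AD. Markers of several cell types also moved with the group. Of 6 keratinocyte markers, the basal keratins Krt5 and Krt14 rose and the other 4 did not pass the test, with negative log2 fold changes for Krt10 (-0.42), Lor (-0.29) and Trp63 (-0.29) and a median of -0.08 over the list. The list summed to 3189 to 5630 CPM in AD and 5611 to 9885 CPM in AD+OB. Of 4 hair shaft keratins, 3 rose (634 to 1133 CPM against 1229 to 2192 CPM), as did 2 of 5 endothelial markers (19.7 to 50.8 CPM against 29.9 to 77.1 CPM), while Acta1 of 4 skeletal muscle markers fell (the list summed to 698 to 1649 CPM in AD and 379 to 968 CPM in AD+OB). Of 8 macrophage and dendritic cell markers none passed the test in either direction, with sums of 19.98 to 67.8 CPM and 31.8 to 133 CPM, and likewise none of 4 plasmacytoid dendritic cell markers (206 to 371 CPM and 317 to 405 CPM), of which Bst2 is also a member. Tcf4 made up most of the latter sums (177 to 327 CPM in AD and 289 to 377 CPM in AD+OB), and neither Siglech nor Ccr9 exceeded 7.71 CPM in any mouse. AD 1 stood apart in the sum of the neutrophil markers, which was 3698 CPM there, 199 to 356 CPM in the other AD mice and 94.4 to 461 CPM in AD+OB mice. S100a8 (2403 CPM) and S100a9 (1292 CPM) made up nearly all of the sum in AD 1. Mpo (0 CPM), Csf3r (0.907 CPM) and Cxcr2 (1.90 CPM) lay within the AD+OB range there. Of the 3 neutrophil markers tested, none passed, and they went both ways. S100a8 and S100a9 had log2 fold changes of -1.53 and -1.57 (edgeR adjusted p = 0.181 and 0.108). Cxcr2 had one of 2.02 (edgeR adjusted p = 0.106), with 6 AD+OB mice above every AD mouse. The part of these shifts in the results below was not tested.

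Promoter sequences of the members were searched for the letters of the ISRE and the GAS. RefSeq promoter windows on GRCm38.p6, reaching from 250 bases before to 50 bases after a start site, were at hand for 31 of the 41 members. The ISRE core was searched as GAAANNGAAA on either strand (TTTCNNTTTC on the other), overlapping matches counted, and it stood in the windows of 18 of the 31 members (58.1%) and of 3.99% of 27025 genes with such windows. The GAS, searched as TTCNNNGAA, which reads the same on both strands, stood in 10 of the 31 (32.3%) and in 9.55% of all genes. Both were present in 6 members, Eif2ak2, Oas1a, Bst2, Ifitm3, Gbp7 and Igtp. A match is a description of the letters and not a measured binding site. As the members were named from knowledge of the interferon response, these shares describe the list and are no result of the mice. The 200 bases before the start site are printed for 5 members whose values are described below, the member with the smallest adjusted p (Trim30a) and a representative each of the ISG15 system, the IFIT family, the antiviral effectors and the interferon-gamma GTPases, 5′ to 3′ on the strand of the gene and with the ISRE core matches in capitals.
Trim30a (chr7:104465194-104465393, minus strand): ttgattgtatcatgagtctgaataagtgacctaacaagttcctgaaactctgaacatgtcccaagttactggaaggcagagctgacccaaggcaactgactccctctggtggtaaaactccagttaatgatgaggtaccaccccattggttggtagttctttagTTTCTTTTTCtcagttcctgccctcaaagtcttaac
Isg15 (chr4:156200819-156201018, minus strand): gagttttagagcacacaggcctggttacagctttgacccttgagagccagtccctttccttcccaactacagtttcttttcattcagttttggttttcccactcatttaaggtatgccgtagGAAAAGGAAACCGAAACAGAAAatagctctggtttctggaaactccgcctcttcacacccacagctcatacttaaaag
Ifit3 (chr19:34583329-34583528, plus strand): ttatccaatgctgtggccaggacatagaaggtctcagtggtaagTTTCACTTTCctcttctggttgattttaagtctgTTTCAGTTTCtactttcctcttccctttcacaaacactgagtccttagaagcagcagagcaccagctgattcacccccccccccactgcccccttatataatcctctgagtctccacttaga
Rsad2 (chr12:26456453-26456652, minus strand): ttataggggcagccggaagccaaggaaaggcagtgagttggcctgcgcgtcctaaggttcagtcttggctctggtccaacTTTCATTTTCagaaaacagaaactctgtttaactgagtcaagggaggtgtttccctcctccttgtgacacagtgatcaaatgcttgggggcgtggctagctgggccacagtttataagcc
Igtp (chr11:58199356-58199555, plus strand): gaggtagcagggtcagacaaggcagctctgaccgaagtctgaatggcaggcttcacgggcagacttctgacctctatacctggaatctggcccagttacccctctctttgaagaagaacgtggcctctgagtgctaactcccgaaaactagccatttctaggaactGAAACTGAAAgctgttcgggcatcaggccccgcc
Isg15 carried 3 overlapping matches, between 78 and 66 bases before the start, and Ifit3 carried 2, at 156 and 122 bases. Trim30a had 1 match at 36 bases, Rsad2 had 1 at 120 bases and Igtp had 1 at 34 bases. The windows of Irf9 held neither motif. As a description without a test, the log2 fold change of AD+OB over AD was positive for 9 of the 18 members with the ISRE core (median 0.0046) and for 5 of the 12 tested members without it (median -0.19), counts that include low members such as Oas3 and values near 0 such as Gbp2.

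Between obese and lean lesional skin, 2 of 40 interferon-stimulated genes passed the test, and both were higher in obese mice. Log2 fold changes of the 40 went both ways. Of the 41 members, 40 had enough counts for the test and 1, Oasl1, did not. Irf9, the DNA-binding part of the type I interferon complex, and Trim30a, a TRIM protein that restrains Toll-like receptor signalling, rose in AD+OB mice, and no member fell (edgeR quasi-likelihood test, Benjamini-Hochberg adjustment over 14163 genes, threshold 0.05). These 2 of 40 members are 5%, against 9.2% of all genes tested that changed in either direction, 4.43% that rose and 4.77% that fell. At an unadjusted p under 0.05, 5 members were higher (Irf9, Ddx58, Rsad2, Isg20 and Trim30a), against 12.3% of all genes, and 4 were lower (Irf1, Eif2ak2, Igtp and Parp9), against 12.8% of all genes. The log2 fold changes of AD+OB over AD were positive for 20 members and negative for 20, from -0.72 to 1.64 with a median of 0.0046, while the median over all genes was 0.023. Without AD 2, 27 of 40 were positive and the median was 0.23, against 0.028 over all genes. The median was 0.42 with limma-trend (24 positive, 0.15 over all genes) and 0.65 with limma-voom sample weights (27 positive, 0.12 over all genes), and it was -0.18 over the 26 members with at least 10 counts in every mouse (10 positive, -0.017 over all genes) and -0.08 over the 28 tested with counts divided by counts per molecule (12 positive, 0.013 over all genes). Values of the 2 groups did not overlap for 2 members, again Irf9 and Trim30a, against 5.45% of all genes. Since whole skin was used, fewer cells of a type and less RNA per cell cannot be told apart for any member.

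**Figure D1:**
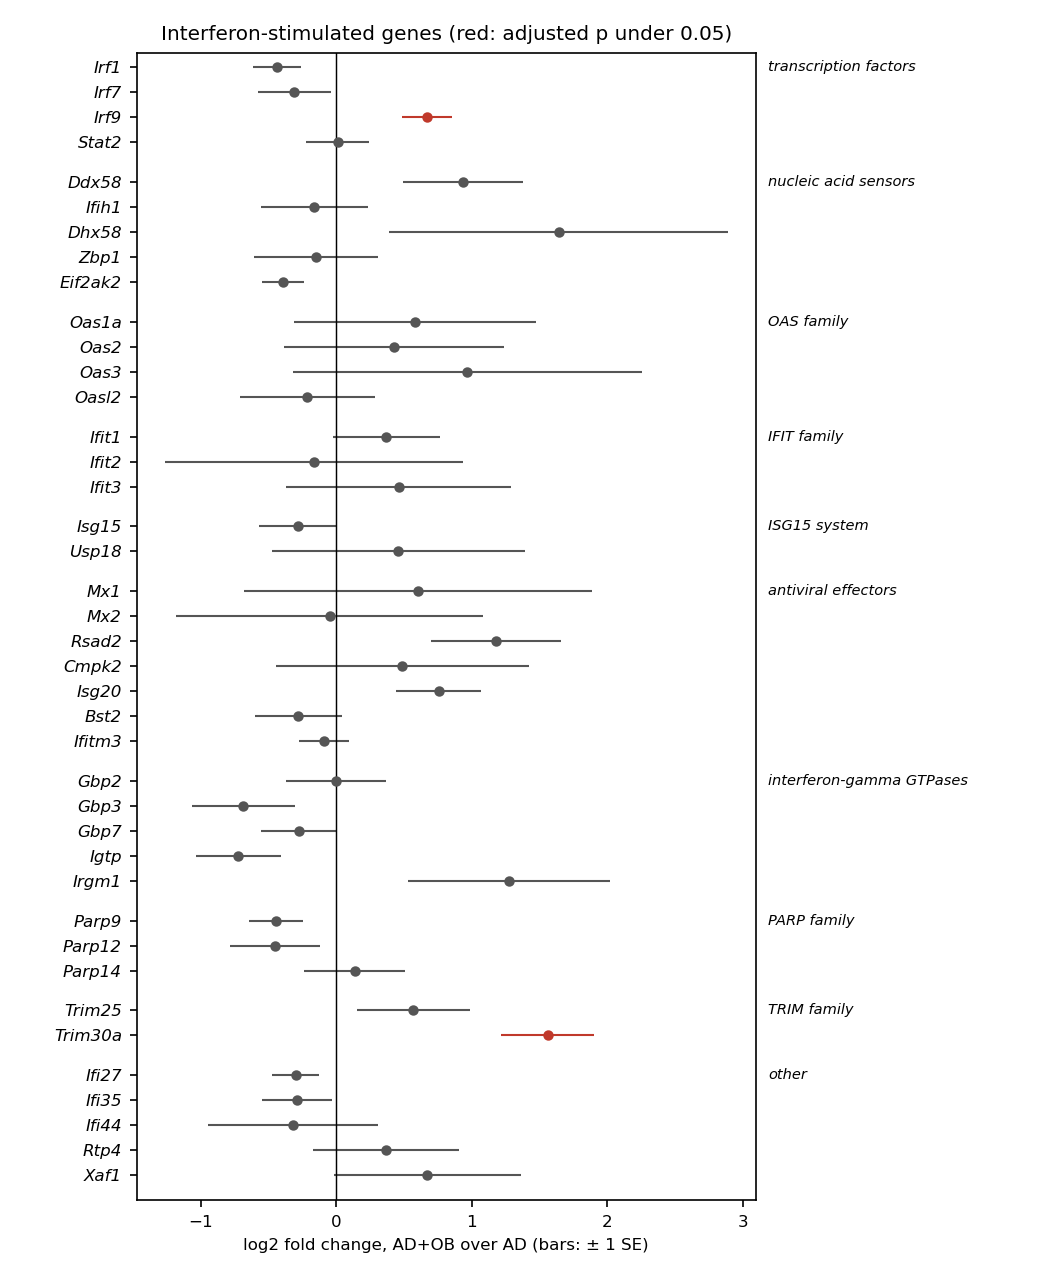
Log2 fold change of AD+OB over AD with its standard error (horizontal axis) for the 40 tested members, grouped by role, where red marks an adjusted p under 0.05. Irf9 (0.67) and Trim30a (1.56) are the red points, 20 members lie on either side of 0, and the members with few counts have the widest bars.

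Precision differed between members. The 26 members with a mean of at least 100 counts per library had standard errors between 0.15 and 0.62, and 9 of them had a positive log2 fold change (median -0.22). The 14 members with fewer counts had standard errors between 0.50 and 1.29, and 11 of them had a positive log2 fold change (median 0.47). Of these 14, 10 had no count in at least 1 AD mouse and 4 had none in at least 1 AD+OB mouse. A member with zeros in AD could pass the filter on low counts through the AD+OB mice, which could favour positive values among these 14. Without the filter, 21 of 41 members had positive values, a count that keeps these 14 and adds only Oasl1, so that it cannot show the part of the filter. The part of the filter in the split of the 14 was not tested, and no result about the members is read from that split. For the members given as not passing the test, a difference within a few standard errors remains possible.

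Among the transcription factors, Irf9 (chr14:55603571-55610030 on GRCm38, plus strand) was measured at 59.5, 27.0, 45.0, 54.1 and 52.7 CPM in AD mice 1 to 5. In AD+OB mice it lay between 61.0 and 95.6 CPM with a median of 75.03 CPM. All 7 AD+OB mice were above all 5 AD mice, with AD 2 the lowest of the 12. The log2 level was 5.56 ± 0.44 (SD, n = 5) in AD and 6.25 ± 0.20 (SD, n = 7) in AD+OB, and the log2 fold change was 0.67 with an SE of 0.18 (1.59-fold; edgeR quasi-likelihood test, adjusted p = 0.0313). The direction held with each mouse left out (0.53 to 0.77), but the adjusted p rose to 0.0551 without AD 2, 0.0641 without AD 3, 0.0513 without AD+OB 1, 0.0600 without AD+OB 4 and 0.0507 without AD+OB 6, and to 0.0585 when limma-voom weighted the samples by quality. Dividing counts by the estimated counts per molecule left the call in place (0.65, adjusted p = 0.0221).

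The other transcription factors did not follow Irf9. Irf1, which acts early on interferon-gamma and drives its own targets, stood at 148, 109, 68.0, 128 and 118 CPM in AD mice. It lay between 71.0 and 104 CPM in AD+OB mice, with a median of 76.4 CPM. Of the AD mice, 4 were above every AD+OB mouse and AD 3 was below them all. Its log2 fold change was -0.44 (SE 0.18, edgeR adjusted p = 0.128), and Irf1 passed the test only without AD 3 (-0.58, adjusted p = 0.0365). Irf7, which amplifies type I interferon production, had a log2 fold change of -0.31 (SE 0.27), and its last 500 bases overlap Phrf1 on the opposite strand. Stat2, the partner of IRF9, had one of 0.01 (SE 0.23).

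**Figure D2:**
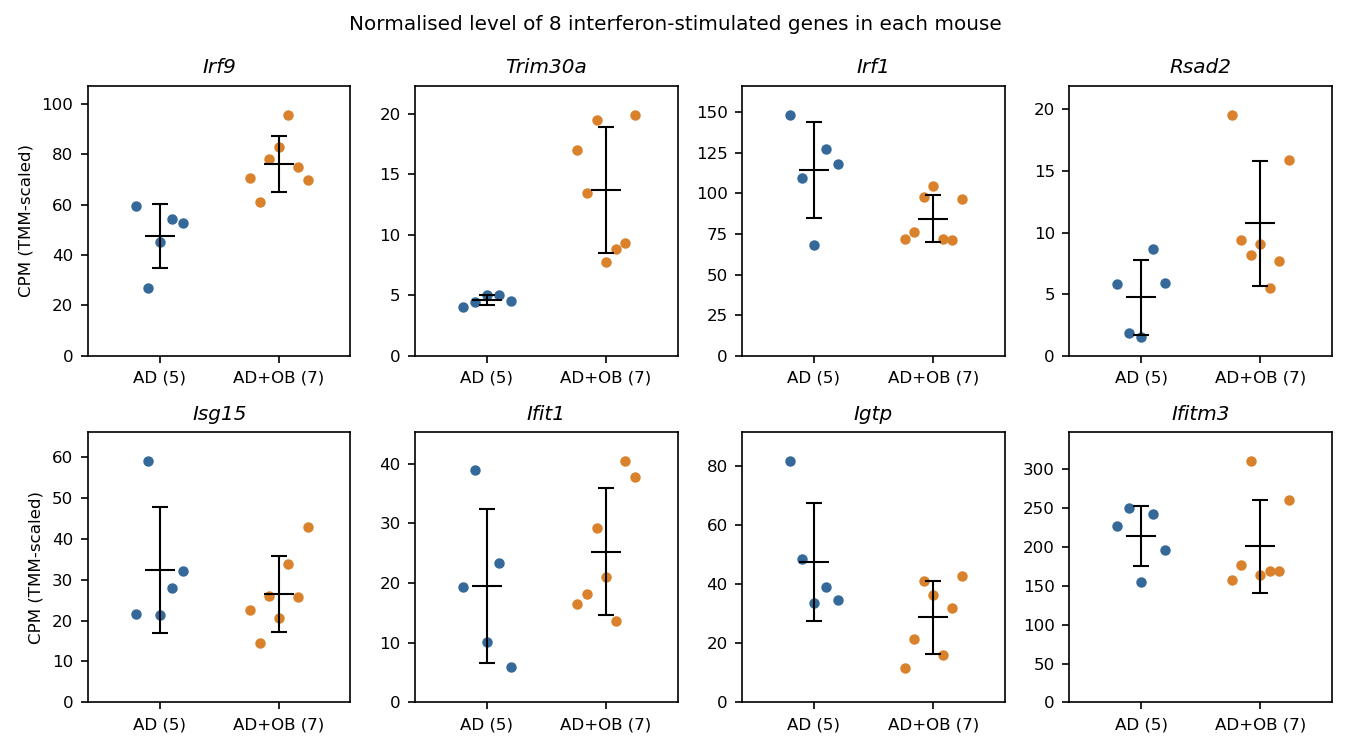
Normalised level in CPM (vertical axis, linear and from 0) of 8 members in each of the 5 AD and 7 AD+OB mice, with the mean and SD in black. The groups are apart for Irf9 and Trim30a and overlap for Irf1, Rsad2, Isg15, Ifit1, Igtp and Ifitm3.

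Of the 5 nucleic acid sensors, 2 had positive and 3 negative log2 fold changes and none passed the test. Ddx58 encodes RIG-I, the sensor of short viral RNA, and was measured at 2.36, 4.97, 2.12, 7.96 and 15.5 CPM in AD mice. In AD+OB mice it lay between 9.92 and 17.2 CPM with a median of 12.6 CPM. Only AD 5 reached the AD+OB range, and the spread was far wider in AD (log2 level 2.63 ± 1.00) than in AD+OB (3.74 ± 0.27). The log2 fold change was 0.94 (SE 0.44, edgeR adjusted p = 0.198), and it passed the test without AD 5 (1.54, adjusted p = 0.0324).

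Dhx58 encodes LGP2, a regulator of RIG-I and MDA5, and had a fitted log2 fold change of 1.64 with an SE of 1.25. It was at 0 counts in AD 1, AD 2 and AD 5 and at 2.32 and 1.33 CPM in AD 3 and AD 4, while the AD+OB mice lay between 0 and 4.62 CPM with a median of 2.39 CPM. The fitted size rests on few reads, and the gene passed the filter on low counts through the AD+OB mice, so that no test is read from it. Eif2ak2 encodes PKR, the kinase that halts translation on binding double-stranded RNA, and stood at 54.4, 46.4, 69.3, 70.4 and 66.7 CPM in AD mice. It lay between 38.2 and 55.8 CPM in AD+OB mice, with a median of 46.5 CPM. AD 3, AD 4 and AD 5 were above every AD+OB mouse, and the log2 fold change was -0.39 (SE 0.15, edgeR adjusted p = 0.115). Ifih1, which encodes the sensor of long viral RNA MDA5, and Zbp1, a sensor of Z-form nucleic acids, differed by -0.16 (SE 0.40) and -0.15 (SE 0.46).

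The OAS enzymes make oligoadenylates that switch on the RNA-degrading enzyme RNase L, and Oasl1 and Oasl2 are their relatives. Of the 4 tested, 3 (Oas1a, Oas2 and Oas3) had positive log2 fold changes and none passed the test. Each of these 3 was at 0 counts in at least 1 AD mouse and could pass the filter on low counts through the AD+OB mice, so that nothing is read from their shared sign. Oas3 was at 3.81 CPM in AD 1, at 0.101 CPM in AD 3 and at 0 in the other AD mice, and between 0 and 2.78 CPM in AD+OB mice with a median of 1.63 CPM. Without AD 1 the AD group holds 1 count in all, so that 1 library decided its fitted log2 fold change of 0.97 (SE 1.29), and as Oas3 passed the filter on low counts through the AD+OB mice, no test is read from it. Oasl2 stood at 15.2, 10.8, 1.01, 9.37 and 2.98 CPM in AD mice and between 5.73 and 9.27 CPM in AD+OB mice, with a median of 6.46 CPM. The AD mice lay on both sides of the narrow AD+OB range, and the log2 fold change of -0.21 (SE 0.50) turned to 0.18 without AD 1. Oas1a and Oas2 differed by 0.58 (SE 0.89) and 0.43 (SE 0.81). Oasl1 had 19 counts in AD 2, 33 in AD 4 and 0 in the other 3 AD mice, and 1 to 37 counts in the AD+OB mice. The difference in its mean log2(CPM + 1) was 0.018 (two-sided exact permutation test over all splits into 5 and 7, p = 0.956; smallest possible p 0.00126).

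The IFIT proteins bind foreign RNA ends and block translation. Ifit1 was measured at 19.3, 39.0, 10.1, 23.3 and 5.97 CPM in AD mice and between 13.6 and 40.4 CPM in AD+OB mice, with a median of 21.0 CPM. The groups overlapped over most of their range, and the log2 fold change was 0.37 (SE 0.39, edgeR adjusted p = 0.614). With each mouse left out, it lay between 0.15 (without AD 5) and 0.78 (without AD 2). Ifit3, whose protein steadies IFIT1, stood at 5.53, 0, 5.35, 0.796 and 1.81 CPM in AD mice and between 1.31 and 7.96 CPM in AD+OB mice, with a median of 3.93 CPM, a log2 fold change of 0.46 (SE 0.83). The value for Ifit3 moved to 0.14 without AD 2 and to 0.91 without AD 1. Ifit2 differed by -0.17 (SE 1.10). Ifit3 has a near-identical neighbour, Ifit3b, with a log2 fold change of -1.54 (SE 0.92, adjusted p = 0.321), and reads of the pair may have been split between them, as may those of Oas1a and its relative Oas1g (1.25, SE 0.86).

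Isg15 encodes a ubiquitin-like protein attached to other proteins on interferon exposure, and Usp18 the protease that removes it and also dampens the type I receptor. Isg15 stood at 21.7, 58.9, 21.4, 27.8 and 32.0 CPM in AD mice and between 14.4 and 42.7 CPM in AD+OB mice, with a median of 25.8 CPM. AD 2 was the highest of the 12 mice. The log2 fold change was -0.28 (SE 0.29, edgeR adjusted p = 0.592) and turned to 0.046 without AD 2. Usp18 was at 0, 5.07, 0, 4.33 and 1.99 CPM in AD mice and between 2.00 and 4.43 CPM in AD+OB mice, with a median of 2.87 CPM. Usp18 had a log2 fold change of 0.46 (SE 0.94), which moved to 0.13 without AD 3 and to 0.98 without AD 2.

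Of the 7 antiviral effectors, 4 had positive and 3 negative log2 fold changes and none passed the test. Mx1 and Cmpk2 among the positive and Mx2 among the negative were at 0 counts in at least 1 AD mouse. Rsad2 encodes viperin, which makes a chain-terminating nucleotide, and was measured at 5.80, 1.86, 1.51, 8.66 and 5.88 CPM in AD mice. It lay between 5.52 and 19.6 CPM in AD+OB mice, with a median of 9.04 CPM. Of the AD+OB mice, 4 were above every AD mouse. AD+OB exceeded AD by a log2 fold change of 1.18 (SE 0.48, edgeR adjusted p = 0.132), and the adjusted p stayed between 0.0694 and 0.291 over all 21 alternatives. Cmpk2, the neighbouring gene on chromosome 12 that supplies the substrate of viperin, differed by 0.49 (SE 0.93).

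Isg20 encodes an exonuclease that degrades viral RNA, and stood at 36.6, 18.2, 9.49, 12.2 and 12.1 CPM in AD mice. In AD+OB mice it lay between 22.2 and 44.2 CPM with a median of 29.4 CPM. Of the AD mice only AD 1 lay within the AD+OB range, and the log2 fold change was 0.75 (SE 0.31, edgeR adjusted p = 0.136). Without AD 1 it was 1.21 and passed the test (adjusted p = 0.0110). Ifitm3, which hinders the entry of enveloped viruses, had levels of 227, 250, 155, 242 and 196 CPM in AD mice and of 157 to 310 CPM in AD+OB mice (median 170 CPM), a log2 fold change of -0.09 (SE 0.19). Bst2 encodes tetherin, which holds budding virions at the membrane, and differed by -0.28 (SE 0.32). The dynamin-like GTPases Mx1 and Mx2, which share sequence, differed by 0.60 (SE 1.28) and -0.05 (SE 1.13).

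The GTPases induced mainly by interferon-gamma, which attack the vacuoles of intracellular pathogens, had negative log2 fold changes in 4 of 5, with a median of -0.28, and none passed the test. Igtp was measured at 81.6, 48.6, 33.8, 39.1 and 34.5 CPM in AD mice. It lay between 11.6 and 42.9 CPM in AD+OB mice, with a median of 32.0 CPM. AD 1 and AD 2 were above every AD+OB mouse and 4 AD+OB mice were below every AD mouse. The log2 fold change was -0.72 (SE 0.31, edgeR adjusted p = 0.157), and it was -0.43 without AD 1. The last 500 bases of Igtp overlap Irgm2 on the same strand (0.68, SE 0.44), so that reads there could fall to either. Gbp3 and Gbp7 differed by -0.68 (SE 0.38) and -0.28 (SE 0.28). Gbp2 differed by -0.0011 (SE 0.37), a value whose sign turned when library totals alone scaled the counts. Irgm1, which steers other members of its family away from the cell's own membranes, had a positive value on few counts. It was at 1.09, 0.931, 0.202, 2.12 and 1.09 CPM in AD mice and between 0.842 and 5.19 CPM in AD+OB mice, with a median of 2.78 CPM. For Irgm1 the log2 fold change was 1.27 (SE 0.74, edgeR adjusted p = 0.309), with 5 of 7 AD+OB mice above every AD mouse. By the estimate of counts per molecule, its AD value rests on about 3.78 molecules in all 5 mice and its AD+OB value on about 48.3 in 7. No contrast with the other 4 is read from it.

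The PARP members transfer ADP-ribose to proteins. Parp9 was measured at 35.9, 39.7, 29.6, 30.6 and 24.7 CPM in AD mice and between 17.6 and 32.6 CPM in AD+OB mice, with a median of 24.4 CPM. Its log2 fold change was -0.45 (SE 0.20, edgeR adjusted p = 0.169), with 4 of 7 AD+OB mice below every AD mouse. Parp12 stood at 18.4, 67.1, 11.7, 30.1 and 33.2 CPM in AD mice and between 17.5 and 34.7 CPM in AD+OB mice, with a median of 20.01 CPM. The high value of AD 2 set its difference, since the log2 fold change of -0.45 (SE 0.33) turned to 0.0090 without that mouse. Parp14, which lies next to Parp9 on chromosome 16, differed by 0.14 (SE 0.37).

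Trim30a (chr7:104409025-104465193 on GRCm38, minus strand) was the member with the clearest difference. It was measured at 4.08, 4.45, 5.05, 5.04 and 4.52 CPM in AD mice. In AD+OB mice it lay between 7.74 and 19.9 CPM with a median of 13.5 CPM. The AD mice were close together, and all 7 AD+OB mice were above them, though they spread over a wide range. The log2 level was 2.49 ± 0.11 (SD, n = 5) in AD and 3.79 ± 0.53 (SD, n = 7) in AD+OB, and the log2 fold change was 1.56 (SE 0.34, 2.95-fold; edgeR quasi-likelihood test, adjusted p = 0.0126). The adjusted p stayed under 0.05 with each mouse left out (log2 fold change 1.44 to 1.66) and with counts divided by counts per molecule (1.65, adjusted p = 0.0150), and rose to 0.102 with limma-voom sample weights (1.45). By the estimate of counts per molecule, the AD value rests on about 14.8 molecules in all 5 mice and the AD+OB value on about 239 in 7.

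Trim30a belongs to a cluster of similar genes. Of these, chosen after their values were seen, Trim30d had means of 15.5 CPM in AD and 19.7 CPM in AD+OB (log2 fold change 0.34, SE 0.33, adjusted p = 0.571) and Trim30b had means of 0.0202 and 1.28 CPM, a pair of low values that passed the filter through the AD+OB group and are given without a test. How reads that match several of them were assigned is not given in the sources used here, so the share of each copy is uncertain. Trim25, the ubiquitin ligase that switches on RIG-I, stood at 33.7, 2.17, 19.98, 20.9 and 13.3 CPM in AD mice and between 17.6 and 39.0 CPM in AD+OB mice, with a median of 28.6 CPM, a log2 fold change of 0.57 (SE 0.42, edgeR adjusted p = 0.433). AD 2 was far below the other mice, and without it the value was 0.29.

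Of the other 5 members, none passed the test. Ifi27, which encodes a small mitochondrial protein, was measured at 86.7, 80.8, 52.5, 77.0 and 65.2 CPM in AD mice and between 39.6 and 79.3 CPM in AD+OB mice, with a median of 57.6 CPM. Ifi27 had a log2 fold change of -0.30 (SE 0.17, edgeR adjusted p = 0.301). Xaf1, which promotes cell death, stood at 0.363, 1.97, 2.72, 1.68 and 0.904 CPM in AD mice and between 1.15 and 4.09 CPM in AD+OB mice, with a median of 2.40 CPM, a log2 fold change of 0.67 (SE 0.69). Rtp4, a chaperone of receptors that is also an antiviral factor, differed by 0.37 (SE 0.54). Ifi35 and Ifi44 differed by -0.29 (SE 0.26) and -0.32 (SE 0.62).

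**Figure D3:**
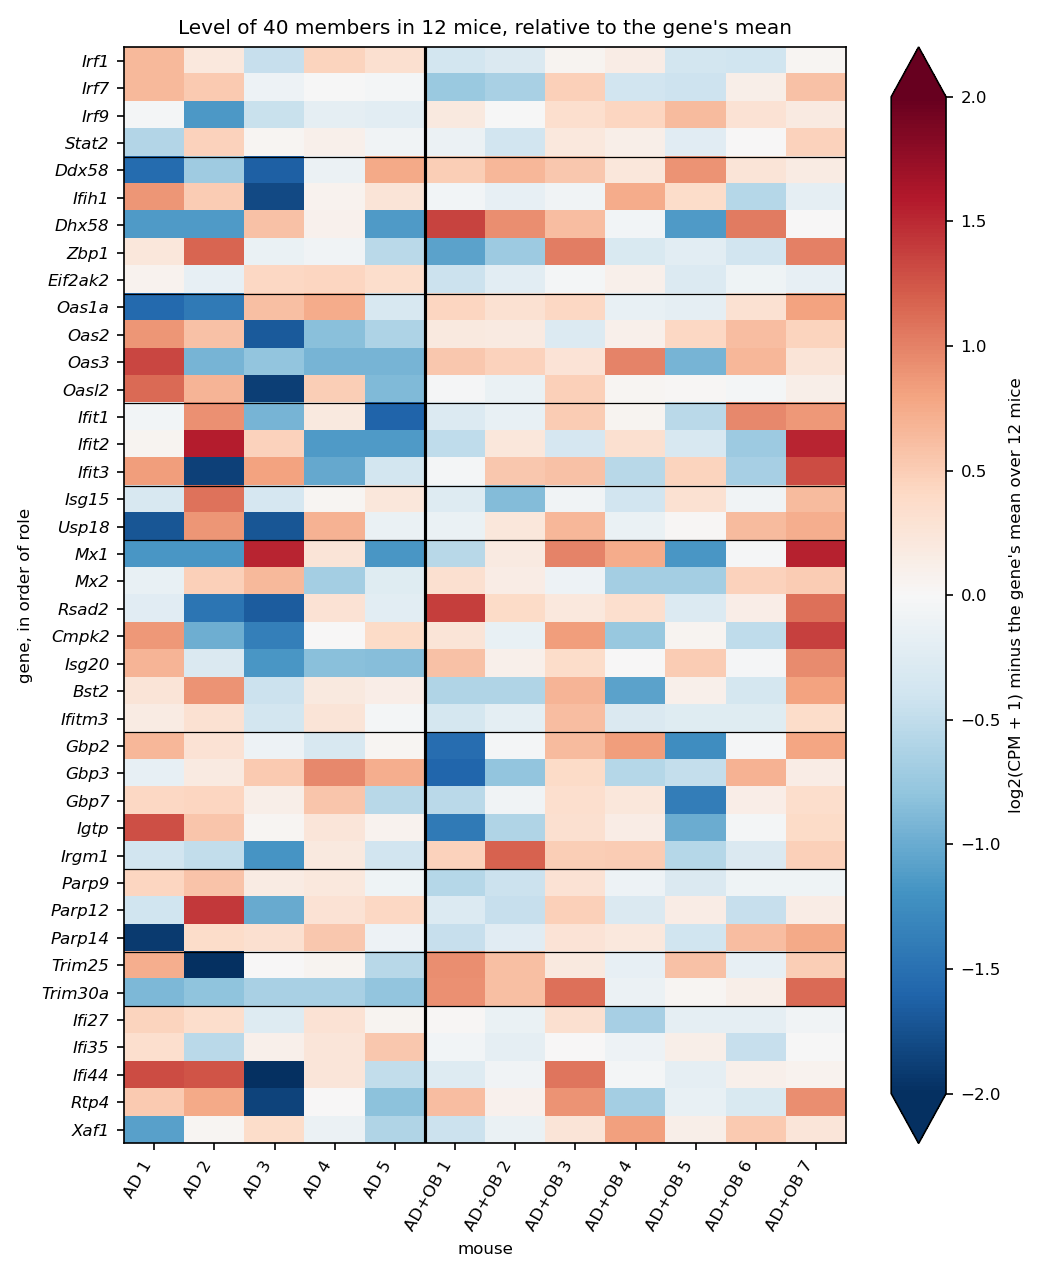
Level of the 40 tested members (rows, in order of role) in the 12 mice (columns), as log2(CPM + 1) minus the mean of the gene over all mice, from blue (below) to red (above), with the scale ending at 2 in both directions. Trim30a is blue in all AD mice, and AD+OB 3 and AD+OB 7 are red for many genes of different roles.

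The spread between mice of a group was as large as the difference between the groups. The mean log2 level over the 40 members was 3.41 ± 0.22 (SD, n = 5) in AD and 3.63 ± 0.27 (SD, n = 7) in AD+OB, and the ranges overlapped (3.09 to 3.58 and 3.34 to 4.07). Zeros lower such a mean, and 3 to 5 members had no count in each AD mouse, against 0 to 4 in AD+OB mice. The summed level of all 41 members, to which Ifitm3 adds the most, was 751 to 1143 CPM in AD and 785 to 1213 CPM in AD+OB. The 26 members with a mean of at least 100 counts had a median log2 fold change of -0.22. No higher level in obese skin is read from the mean. With each member scaled to a z score over the 12 mice, the mean over members was 0.10, 0.14, -0.59, 0.12 and -0.28 in AD mice 1 to 5, and lay between -0.33 and 0.73 in AD+OB mice with a median of -0.06. AD+OB 7 (0.73) and AD+OB 3 (0.59) had the highest values and AD 3 had the lowest. AD+OB 7 was the highest of the 12 mice for 9 members, AD 1 for 9 and AD 2 for 7, whereas AD 3 was the lowest for 14. The mean z score over all genes tested lay between -0.19 and 0.005 in AD and between 0.034 and 0.076 in AD+OB, and their mean log2 level between 4.29 and 4.45 in AD and between 4.49 and 4.55 in AD+OB. The summed level of 5 dermal fibroblast markers was 6899 CPM in AD+OB 3 and 8209 CPM in AD+OB 7, against 2623 to 3992 CPM in the other AD+OB mice, and between 2972 and 8564 CPM in AD mice. Adipocyte markers summed to 281 and 449 CPM in these 2 mice, against 63.6 to 247 CPM in the other AD+OB mice, but to 624 CPM in AD 1 and 371 CPM in AD 2, whose mean z scores were 0.10 and 0.14. Skeletal muscle markers summed to 480 and 379 CPM in AD+OB 3 and AD+OB 7, against 487 to 968 CPM in the other AD+OB mice and 698 to 1649 CPM in AD mice. Macrophage and dendritic cell markers summed to 73.5 CPM in AD+OB 3 and 110 CPM in AD+OB 7, within the 31.8 to 133 CPM of the other AD+OB mice. The part of these cells in the members' levels was not tested.

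**Figure D4:**
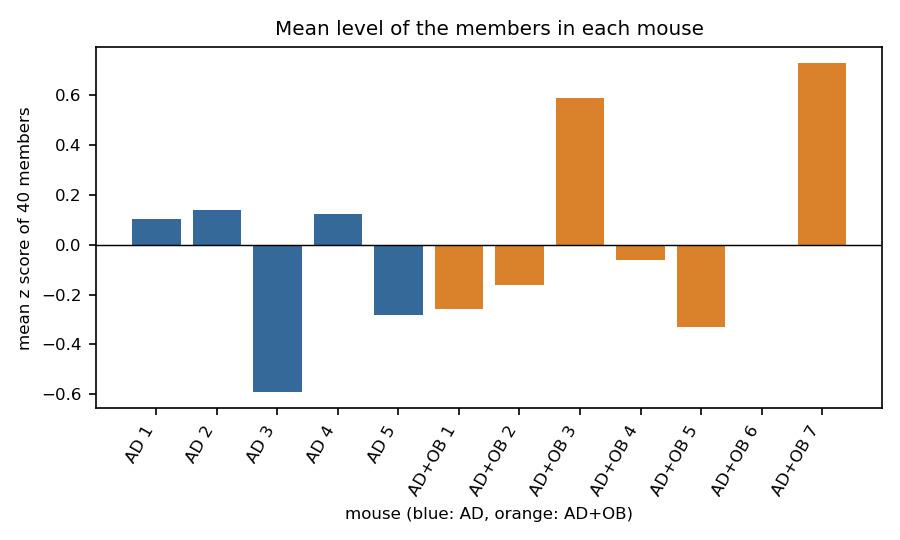
Mean z score of the 40 tested members (vertical axis) in each mouse, with AD in blue and AD+OB in orange. AD+OB 7 (0.73) and AD+OB 3 (0.59) are the highest and AD 3 (-0.59) the lowest, and the groups overlap.

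Members differed in how far they varied together between mice of a group. After removal of the group means, Pearson's r over the 12 mice had a median of 0.16 over 780 pairs of members and of 0.21 over the 325 pairs with at least 100 counts (0.15 within AD and 0.32 within AD+OB), while it was 0.0035 over pairs drawn from all genes tested. The closest pairs were Gbp2 and Igtp (0.92), Irf7 and Zbp1 (0.87), Zbp1 and Parp9 (0.86) and Bst2 and Ifitm3 (0.86), and the most opposed pairs were Ifit1 and Ifi35 (-0.69), Parp12 and Trim25 (-0.68) and Stat2 and Trim25 (-0.65). These are descriptions over 12 libraries that share their depth and tissue composition within a mouse. The genes outside the lists whose level was most like the members' mean z score over the 12 mice were Cdo1 (r = 0.84), Naglu (0.83), Arl15 (0.83), Tns1 (0.82) and Igfbp7 (0.81).

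Other genes of the interferon pathway numbered 63, of which 48 were tested, with 21 positive and 27 negative log2 fold changes (median -0.065). Irf3 and Ly6e rose and Nlrc5 fell, so that 3 of 48 (6.25%) passed the test, against 9.2% of all genes. Transcripts of the interferons themselves were hardly detected, and none of the 10 ligands had enough counts for the test. Ifna1, Ifna2, Ifna4, Ifna5, Ifnb1, Ifne, Ifnl2 and Ifnl3 had no count in any of the 12 mice, which allows up to 0.310 CPM per library if each count is a separate molecule. With an estimated 12 to 32.2 counts per molecule in AD and 3.92 to 7.35 in AD+OB, the limit is wider, and more so in AD. Ifnk, the interferon of keratinocytes, had 5 counts in AD+OB 4 alone. Ifng had 7 counts in AD 5 and none in the other AD mice, and 5, 9, 24 and 3 counts in AD+OB 1 to 4 and none in the other 3. Among markers of natural killer cells, a source of Ifng, 2 of 4 were at 0 in all mice and the list summed to at most 3.33 CPM. Those of T cells summed to 6.21 to 24.8 CPM in AD and 6.44 to 11.7 CPM in AD+OB.

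The 6 receptor chains were detected in every mouse and none passed the test (edgeR adjusted p between 0.210 and 0.960). Of the type I receptor, Ifnar1 lay between 31.3 and 56.4 CPM in AD and between 31.1 and 41.7 CPM in AD+OB (log2 fold change -0.18, SE 0.18), and Ifnar2 between 16.4 and 53.7 CPM and between 19.9 and 33.4 CPM (0.035, SE 0.28). Of the interferon-gamma receptor, Ifngr1 lay between 88.0 and 217 CPM in AD and between 73.6 and 115 CPM in AD+OB (-0.42, SE 0.20), and Ifngr2 between 8.28 and 41.3 CPM and between 25.3 and 38.3 CPM (0.23, SE 0.28). Ifnlr1 and Il10rb, the chains of the type III receptor, differed by -0.31 (SE 0.33) and -0.21 (SE 0.34). The groups overlapped for every chain.

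**Figure D5:**
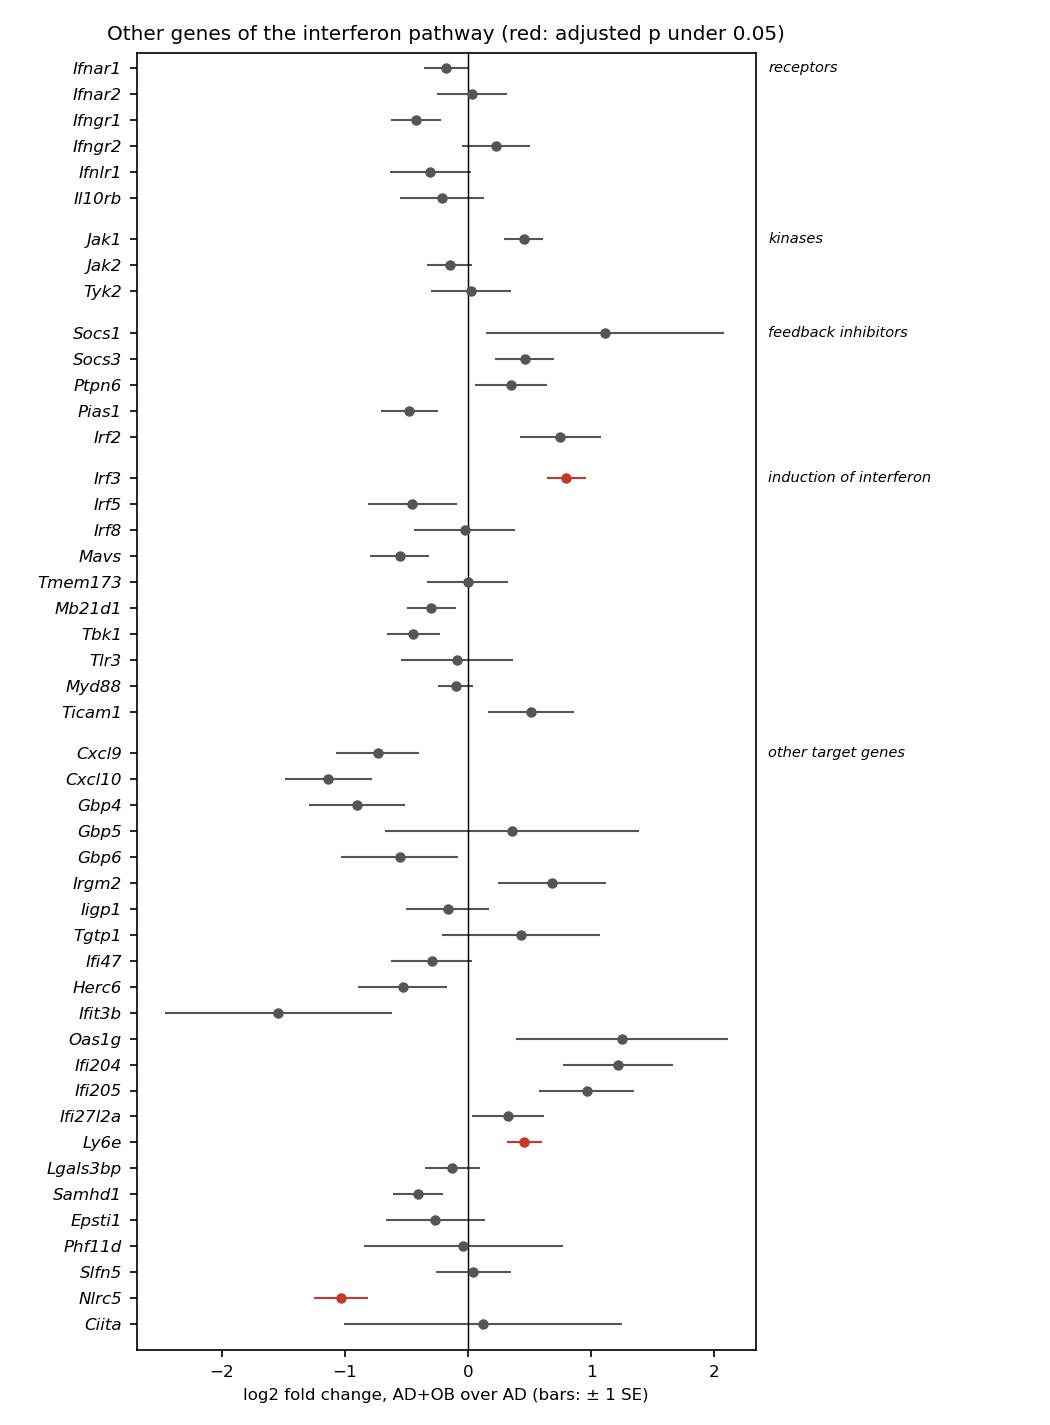
Log2 fold change of AD+OB over AD with its standard error (horizontal axis) for 47 of the 48 tested genes of the interferon pathway outside the member list, grouped by role, where red marks an adjusted p under 0.05. Irf3 (0.80) and Ly6e (0.46) lie above 0 and Nlrc5 (-1.03) lies below.

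Irf3, which switches on interferon genes once nucleic acid sensors fire, was measured at 29.7, 33.1, 23.9, 25.4 and 27.1 CPM in AD mice. It lay between 40.4 and 54.3 CPM in AD+OB mice, with a median of 51.2 CPM, and all 7 were above every AD mouse. Irf3 rose by a log2 fold change of 0.80 (SE 0.16, edgeR adjusted p = 0.0083). Nlrc5, an activator of MHC class I genes that interferon-gamma induces, stood at 69.8, 130, 54.0, 83.1 and 79.6 CPM in AD mice. It lay between 24.5 and 51.4 CPM in AD+OB mice, with a median of 44.2 CPM, and all 7 were below every AD mouse. For Nlrc5 it was -1.03 (SE 0.22, edgeR adjusted p = 0.0115), and both Irf3 and Nlrc5 passed the test with each mouse left out.

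Ly6e, a membrane protein that limits coronavirus entry, stood at 154, 108, 87.3, 111 and 125 CPM in AD mice and between 148 and 184 CPM in AD+OB mice, with a median of 158 CPM. Its log2 fold change of 0.46 (SE 0.14, edgeR adjusted p = 0.0487) was close to the threshold, and it passed in 8 of 21 alternatives. The adjusted p lay between 0.0152 and 0.117 over these, and was over 0.05 without AD 2, AD 3, AD 4 or any 1 AD+OB mouse. Cxcl9 and Cxcl10, chemokines that interferon-gamma induces and that draw T cells, did not pass the test (log2 fold changes -0.73 with SE 0.34 and -1.13 with SE 0.35, adjusted p = 0.185 and 0.0534). Of the AD+OB mice, 6 were below every AD mouse for Cxcl9, which passed the test without AD+OB 4 (adjusted p = 0.0425). Cxcl10 passed it in 5 of 21 alternatives (adjusted p 0.0162 to 0.133). Ifi204 and Ifi205 had positive values and did not pass (1.22 with SE 0.45 and 0.96 with SE 0.39, edgeR adjusted p = 0.0977 and 0.126). They passed in 2 and 1 of 21 alternatives. Among the 23 tested target genes of the pathway list, 10 had positive and 13 negative log2 fold changes.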

How the data were processed

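Skin RNA of 5 AD and 7 AD+OB mice was sequenced with a QuantSeq 3′ kit. The authors deposited raw counts per gene symbol. Their processing notes name Bowtie2, bedtools and mm10. Versions, annotation, strand setting and removal of duplicates are not given in the sources used here, and no molecular identifiers are described, so limits cover counting error only. Duplicate reads would raise counts without adding molecules.

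Groups came from the labels. Counts were fitted with edgeR 4.0.16 in R 4.3.3 (TMM, filterByExpr, quasi-likelihood test on group, Benjamini-Hochberg over 14163 genes, threshold 0.05). Levels are CPM with TMM-scaled totals, or log2(CPM + 1) with the SD over mice. The SE was derived from the F statistic. Oasl1 was compared by an exact permutation test. Steps were tested on simulated data. Alternatives used DESeq2 1.42.0 and limma 3.58.1. They were size factors of DESeq2 or library totals as scaling, no filter or at least 10 counts in every mouse, a DESeq2 Wald test, limma-trend, voom with sample weights, counts divided by counts per molecule (estimated from the share of zeros), the replicate number as a term, and each mouse left out, 21 fits in all, plus a pseudocount of 0.1 for Oasl1.

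Members, lists and tests were chosen with earlier results of these data known. Given in full were members past the threshold and, per role, the member with the highest mean CPM and that with the largest absolute change. Of the pathway list these were ligands, receptors and genes past the threshold, and 1 further gene that was tested and counted but is not reported here. Ddx58, Isg20, Cxcl9, Cxcl10, Ifi204 and Ifi205 were added to these once their values had been seen. Positions come from GENCODE M21 on GRCm38.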

Additional observations from a re-analysis of the deposited data

Results flagged for a closer look

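Of 40 groups of values checked, 3 had a sample far from the others of its group, and chance gives about 1 in 20. Oas3 was at 3.81 CPM in AD 1, where the next AD mouse had 0.101 CPM. Oasl2 was at 9.27 CPM in AD+OB 3, where the next AD+OB mouse had 6.99 CPM. Isg15 was at 58.9 CPM in AD 2, where the next AD mouse had 32.0 CPM.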

How the results depend on the processing

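Over 21 alternatives, genes that passed the test numbered 1303 as reported, 766 with limma-voom sample weights, 192 with the replicate block and 639 to 1461 with each mouse left out (lowest without AD+OB 2, with 686 without AD+OB 1, 794 without AD+OB 4 and 803 without AD 2). Members that rose numbered 2 as reported, 0 with sample weights, 0 with the replicate block and 1 to 4 with each mouse left out (4 without AD 1: Irf9, Trim30a, Isg20 and Oas3, of which Oas3 then had 1 count in all AD mice). Members that fell numbered 0 to 1 with each mouse left out (Irf1 without AD 3). Positive log2 fold changes numbered 10 of 26 members tested with at least 10 counts in every mouse and 12 of 28 with counts divided by counts per molecule, where fewer members were tested, and, of 40, 24 with limma-trend, 27 with sample weights and 27 without AD 2. The median log2 fold change was 0.42 with limma-trend (0.15 over all genes), 0.65 with sample weights (0.12 over all genes) and -0.08 to 0.23 with each mouse left out (highest without AD 2). The cause was not tested. Pathway genes that passed numbered 5 with at least 10 counts in every mouse, 5 with DESeq2's Wald test, 0 with the replicate block and 2 to 6 with each mouse left out (6 without AD 1). The difference in Oasl1 was -0.18 to 0.33 with each mouse left out, and negative without AD 1, AD 3, AD 5 or AD+OB 7. With a pseudocount of 0.1 the Oasl1 difference was 0.79 (exact permutation test, p = 0.472), against 0.018 as reported. Oasl2 turned to 0.27 with limma-trend, 0.39 with sample weights and 0.18 with the replicate block, and lay between -0.49 and 0.18 with each mouse left out. Isg15 lay between -0.44 and 0.046 and Parp12 between -0.66 and 0.0090, both highest without AD 2. Replicate numbers did not pair the mice. The correlation of same-numbered mice lay between -0.11 and 0.072, and 1 of 5 AD mice correlated best with its own number. With the block, Irf9 had an adjusted p of 0.0686, Trim30a one of 0.110, Irf3 one of 0.0837 and Nlrc5 one of 0.0585. Dhx58, Oas3 and Mx2 had at most 60 counts in any mouse and 0 in at least 1 mouse of each group, which limits the precision of their values.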
